A study of Arabidopsis thaliana with 3 samples.

Results

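The genes described here encode parts of the machinery that makes, processes and degrades RNA: subunits of the nuclear RNA polymerases, LSM proteins and DEAD-box RNA helicases. They were chosen by name, as genes whose symbol is NRPA, NRPB, NRPC, NRPD or NRPE, LSM, or RH followed by a number. This gave 20 of the 9253 genes measured, namely 12 polymerase subunit genes, 6 LSM genes and 2 helicase genes, each with 1 spot on the array. In the gene table used for names, 28, 8 and 5 genes carry such symbols. Of the genes so named, the spots with 1 listed gene cover most for LSM but only part for the polymerases and helicases. Of the 22236 spots, 12861 had no listed gene and were not used, so a gene not found here may still have a spot. Genes of these families listed under other symbols are not in these counts. The families were taken up with the ratios of these arrays already known, so the values below are a description, and no p-value given for a member is support for the choice.

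RNA came from the inflorescence stem of Arabidopsis thaliana, from the basal 4 cm of stems 12 to 17 cm tall, from untreated plants kept in days of 8 h light and 16 h dark. The mutant carried the T-DNA alleles nst1-1 and nst3-1 in the genes of the NAC transcription factors NST1 and NST3, and the control was wild type with no transgene named. Both alleles are the same in the 3 mutant samples, called lines 1, 2 and 3 after their label numbers. Per the labels such plants lack secondary xylem in stem and hypocotyl. Each line shared 1 two-colour array with wild-type RNA, with the mutant in Cy5 for lines 1 and 3 and in Cy3 for line 2. Neither the number of wild-type extracts nor any pooling of plants is given in the labels. With a single extract, p-values would leave out the spread of the wild type.

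Eukaryotic genes are read by separate nuclear polymerases. Pol I makes ribosomal RNA, Pol II makes messenger RNA, and Pol III makes transfer RNA and other small RNAs, while plants have in addition Pol IV and Pol V, relatives of Pol II that act in RNA-directed DNA methylation. The gene names follow this order from NRPA to NRPE, and several small subunits are shared between the enzymes. LSM proteins assemble into rings. The cytoplasmic ring contains LSM1 and promotes decapping of messenger RNA, whereas the nuclear ring contains LSM8 in its place and binds U6 small nuclear RNA of the spliceosome. LSM3 and LSM6 belong to both. DEAD-box helicases use ATP to open short RNA duplexes in splicing, ribosome assembly, translation and decay.

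All values are log2 ratios of mutant over wild type, on the reading that the deposited log ratios are log10 of Cy5 over Cy3. If they were Cy3 over Cy5, every direction would be turned, and if the base were another, every fold would change. The median over all genes was close to 0 on each array (0.0098, 0.01 and 0.014 in lines 1, 2 and 3). Lines 2 and 3 were more alike across genes (Pearson r = 0.784) than line 1 was to either (0.488 and 0.477), a description over genes that share their arrays. The targeted genes NST1 and NST3 were not analysed here. The lignin and xylan genes taken as markers of cells forming secondary walls were HCT, IRX15, IRX15-L and IRX10-L, the last listed as GUT1. Of these, 4 of 4 passed the limma test as lower, as did 2.6% of all genes. All markers in this paragraph were chosen with earlier results of these data known, so their counts are a description only. HCT, of lignin monomer synthesis, had a mean of -2.40 ± 0.17 (SD, n = 3 lines) and IRX15, of xylan synthesis, one of -2.14 ± 0.23. The green-cortex genes LHCB4.1, LHCB4.2 and LHCB4.3 had means of -0.86, -0.63 and -0.75, of which the last passed. In lines 1, 2 and 3, LHCB4.1 measured -0.36, -1.18 and -1.05, and LHCB4.2 measured 0.10, -0.94 and -1.05. LHCB4.3 measured -0.80, -0.88 and -0.57. The markers of phloem and cambium (SWEET11 and CLE41) and of dividing cells (AUR1 and AUR2) gave 0 of 4 calls. Over all genes 3.39% were called in either direction, so so few genes without a call do not show that these cell types were unchanged. SWEET11 ranged from -0.50 to 2.28 over the lines, CLE41 from -0.26 to 0.40, AUR1 from -0.29 to 0.33 and AUR2 from -0.89 to 0.63. Whether a different make-up of the stem base plays a part in the ratios below was not tested. In a bulk sample, a change in the share of a cell type and a change in RNA per cell cannot be told apart.

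The members lay slightly above the wild type, by well under 2-fold. Their mean log2 ratios ran from -0.02 to 0.67, with a median of 0.36, or 1.28-fold, against 0.013 over all genes. Of the 20 members, 18 had a mean above 0, as did 52.0% of all genes. On every one of the 3 arrays 15 members were above 0, as were 26.2% of all genes, and 0 were below 0 on every array, against 23.9% of all genes. Since the families were chosen with these ratios known, the contrast is not read as a finding about them.

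The medians of the families were close to each other. The polymerase genes had a median log2 ratio of 0.34, the LSM genes one of 0.38 and both helicase genes together one of 0.34. Line by line, the polymerase medians were 0.44, 0.36 and 0.24, and the LSM medians were 0.44, 0.26 and 0.44. These families thus differed by less than the spread of their medians over the lines (SD 0.098 and 0.11).

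**Figure D1:**
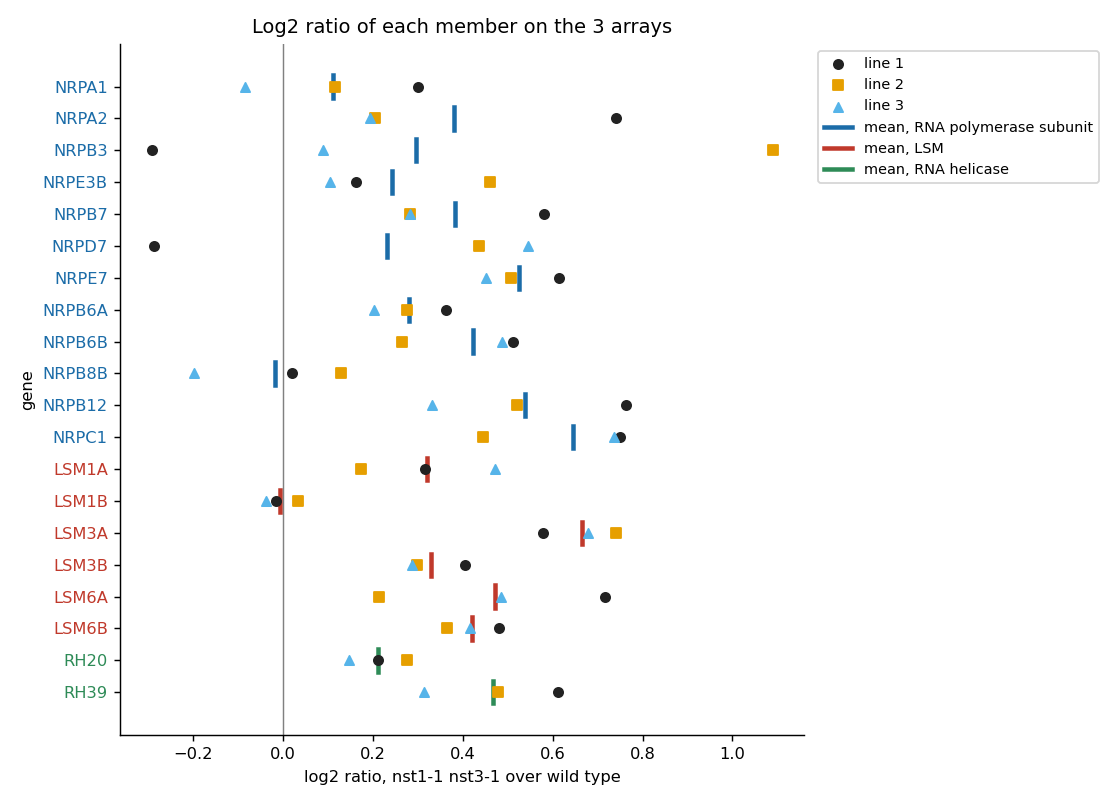
Log2 ratio of mutant over wild type (horizontal axis) for each of the 20 genes (vertical axis), with 1 point per line and a coloured bar at the mean of the 3 lines. For 15 genes all points lie above 0, while NRPB3 and NRPD7 have line 1 at about -0.29 and other lines above 0.

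In the limma fit of all genes, 1 of the 20 members passed a Benjamini-Hochberg adjusted p under 0.05, in the direction of higher in the mutant, where 0.789% of all genes passed. In either direction 3.39% passed, with 73 genes higher and 241 lower, or 175 and 344 with the arrays scaled to equal spread. At an unadjusted p under 0.05, 12 members were higher and 0 lower, against 13.9% and 11.9% of all genes. The 1 member called was LSM3A, and 6 others had an adjusted p between 0.05 and 0.1.

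**Figure D2:**
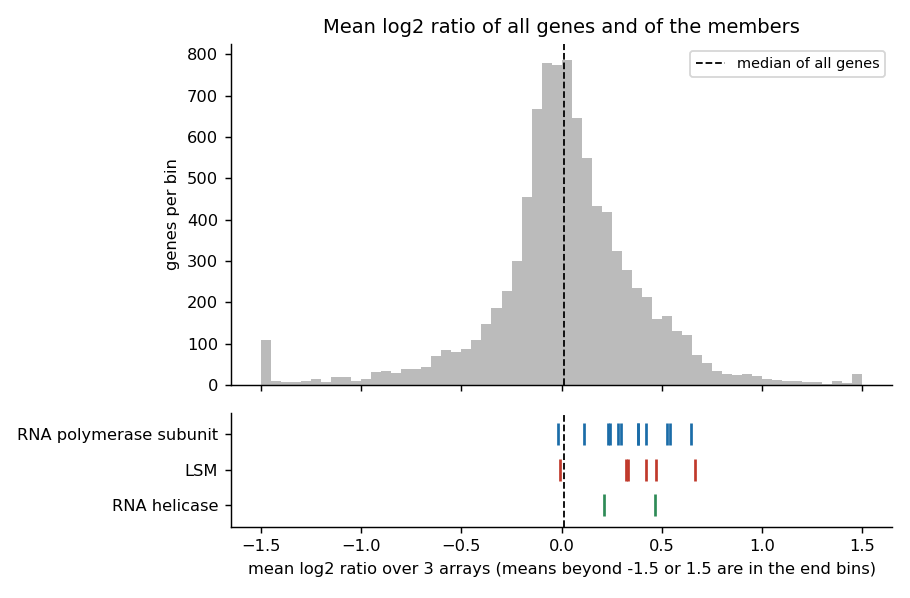
Histogram of the mean log2 ratio of all 9253 genes (upper panel, genes per bin) and the means of the members by family (lower panel, 1 tick per gene), on the same horizontal axis. The members lie between -0.02 and 0.67, and the dashed line is the median of all genes, 0.013.

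Of the 6 LSM genes, 5 were above 0 on every array, against 26.2% of all genes. They were the genes for LSM3 and LSM6, which belong to both rings, and LSM1A of the decapping ring. LSM3A (AT1G21190) measured 0.58, 0.74 and 0.68 in lines 1, 2 and 3. It rose by 0.67 ± 0.08 (SD, n = 3 lines; limma adjusted p = 0.0449), equal to 1.59-fold. Its lines differed little, with the highest value in line 2. The call was lost without line 2 (mean 0.63, limma adjusted p = 0.28), without line 3 (0.66, adjusted p = 0.238) and with a dye term in the fit (0.68, adjusted p = 0.201), settings under which no gene passed.

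LSM3B (AT1G76860), the other gene for LSM3, measured 0.41, 0.30 and 0.29, a mean of 0.33 ± 0.07 (limma adjusted p = 0.102). Every value of LSM3B was lower than every value of LSM3A. On the same array LSM3A exceeded LSM3B by 0.17, 0.44 and 0.39, a mean difference of 0.34 ± 0.14. Differences between related genes are given as a description, without a test. With 3 arrays an exact two-sided sign-flip test cannot go below p = 0.25.

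The LSM6 genes were similar to each other. LSM6A (AT3G59810) measured 0.72, 0.21 and 0.49, with line 1 high and line 2 low, and LSM6B (AT2G43810) measured 0.48, 0.37 and 0.42. LSM6A had a mean of 0.47 ± 0.25 (limma adjusted p = 0.122). The mean of LSM6B was 0.42 ± 0.06 (limma adjusted p = 0.0695). The line values overlapped, and the difference of LSM6A over LSM6B was 0.05 ± 0.19.

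The LSM1 genes, specific to the decapping ring, differed from each other on every array. LSM1B had the lowest mean of the family, while the mean of LSM1A was close to that of LSM3B (0.33). LSM1A (AT1G19120) measured 0.32, 0.17 and 0.47, a mean of 0.32 ± 0.15 (limma adjusted p = 0.145). LSM1B (AT3G14080) measured -0.01, 0.03 and -0.04, a mean of -0.01 ± 0.04 (limma adjusted p = 0.967), and its lines had the smallest SD of the 20 members. The values of the pair did not overlap, and LSM1A exceeded LSM1B by 0.33, 0.14 and 0.51 on the 3 arrays. Whether the probe of one gene of a pair also takes up the transcript of the other was not tested.

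**Figure D3:**
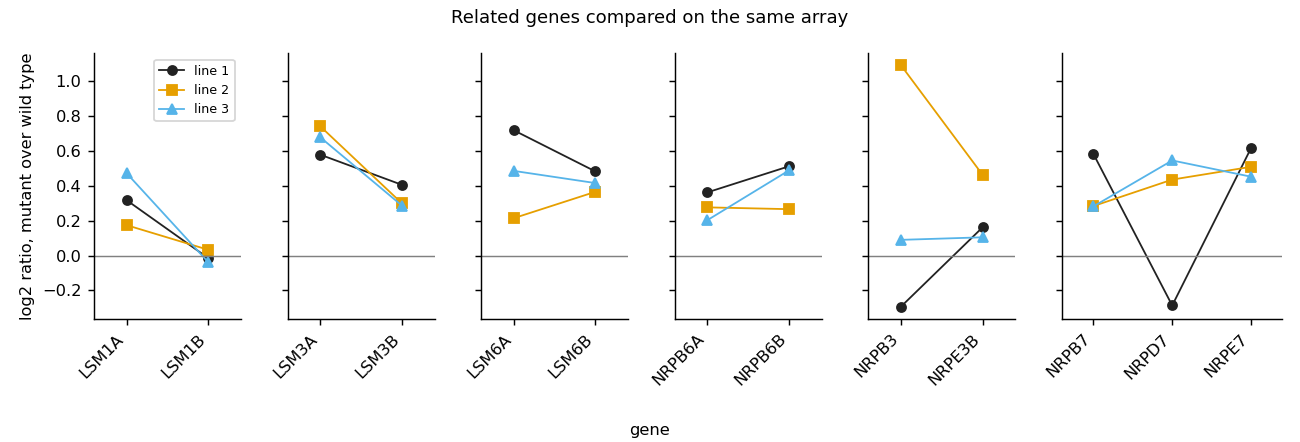
Log2 ratio of mutant over wild type (vertical axis) for sets of related genes (horizontal axis), with each line drawn as joined points from the same array. LSM1A lies above LSM1B and LSM3A above LSM3B on all 3 arrays. Which gene is higher depends on the array for LSM6A and LSM6B and for NRPB3 and NRPE3B.

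Among the polymerase genes 0 of 12 were called by limma, 6 were higher at an unadjusted p under 0.05, and 8 were above 0 on all 3 arrays. The shares of all genes in these classes were 3.39% called in either direction, 13.9% and 26.2%. The Pol III gene NRPC1 (AT5G60040), for the largest subunit, had the highest mean of them. It measured 0.75, 0.45 and 0.74, a mean of 0.64 ± 0.17 (SD, n = 3 lines; limma adjusted p = 0.058). The corresponding Pol I gene, NRPA1 (AT3G57660), measured 0.30, 0.12 and -0.09, a mean of 0.11 ± 0.19 (limma adjusted p = 0.577). The values of these genes did not overlap, and NRPC1 exceeded NRPA1 by 0.45, 0.33 and 0.82 on the same arrays. NRPA2 (AT1G29940), for the second largest Pol I subunit, measured 0.74, 0.20 and 0.19, so that line 1 alone was high (mean 0.38 ± 0.31, limma adjusted p = 0.212). Without line 1 the mean of NRPA2 was 0.20 and that of NRPA1 was 0.02, while without line 3 that of NRPA1 was 0.21.

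Subunit 7 forms the stalk of the enzymes with its partner, and Pol II, Pol IV and Pol V each have a gene named for it. NRPE7 (AT4G14660), of Pol V, measured 0.61, 0.51 and 0.45, a mean of 0.52 ± 0.08 (limma adjusted p = 0.0561). It passed with the arrays scaled to equal spread (limma adjusted p = 0.0455) and without line 1 (0.0479), settings under which 1.89% and 6.2% of all genes passed as higher. NRPB7 (AT5G59180), of Pol II, measured 0.58, 0.28 and 0.28, a mean of 0.38 ± 0.17 (limma adjusted p = 0.121). NRPD7 (AT3G22900), of Pol IV, measured -0.29, 0.44 and 0.54, so that line 1 opposed the others (mean 0.23 ± 0.45, limma adjusted p = 0.524). Without line 1 the mean of NRPD7 was 0.49 (limma adjusted p = 0.0501), and without line 3 it was 0.07.

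Of the genes for subunit 3, NRPB3 had the widest spread of all members. NRPB3 (AT2G15430), used by Pol II, measured -0.29, 1.09 and 0.09, and the value of line 2 was the only one of the 60 member values beyond 2-fold. Its mean was 0.30 ± 0.71 (limma adjusted p = 0.592) and turned to -0.10 without line 2. NRPE3B (AT2G15400), a related gene named for Pol V, lies close by on chromosome 2, with 2 annotated genes between them. It measured 0.16, 0.46 and 0.10, also highest in line 2, with a mean of 0.24 ± 0.19 (limma adjusted p = 0.254), which was 0.13 without line 2. The array of line 2 was the 1 with the mutant in Cy3. Line and dye orientation cannot be told apart there.

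The small subunits shared by several polymerases were mixed. NRPB12 (AT5G41010) measured 0.76, 0.52 and 0.33, a mean of 0.54 ± 0.22 (limma adjusted p = 0.0852). The genes for subunit 6, NRPB6A (AT5G51940) and NRPB6B (AT2G04630), had overlapping lines. NRPB6A measured 0.36, 0.28 and 0.20 (mean 0.28 ± 0.08, limma adjusted p = 0.137), and NRPB6B measured 0.51, 0.27 and 0.49 (mean 0.42 ± 0.14, limma adjusted p = 0.0889). NRPB8B (AT3G59600) was near 0, at 0.02, 0.13 and -0.20 (mean -0.02 ± 0.17, limma adjusted p = 0.934).

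Both helicase genes were above 0 on every array, as were 26.2% of all genes. Limma called 0 of them, where 3.39% of all genes were called. RH39 alone was higher at an unadjusted p under 0.05, as were 13.9% of all genes. RH39 (AT4G09730), a chloroplast helicase that acts in the maturation of ribosomal RNA there, measured 0.61, 0.48 and 0.31, a mean of 0.47 ± 0.15 (limma adjusted p = 0.0791). RH20 (AT1G55150) measured 0.21, 0.28 and 0.15, a mean of 0.21 ± 0.06 (limma adjusted p = 0.2001). Every value of RH39 was higher than every value of RH20. A further gene, AT3G09720, carries RH57 among its synonyms and not as its symbol, and was therefore not counted. It measured 0.78, 0.09 and 0.19 (limma adjusted p = 0.286), with line 1 high.

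Lines did not contribute evenly. Line 1 had the highest value in 12 of the 20 members, against 43.6% of all genes, and line 3 had the lowest in 12, against 28.7% of all genes. Even so, 17 members were above 0 in line 1, all 20 in line 2 and 17 in line 3, against 51.3%, 51.3% and 51.9% of all genes. The typical SD over the lines, 0.16 as the median of the members, was close to that of all genes (0.18).

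**Figure D4:**
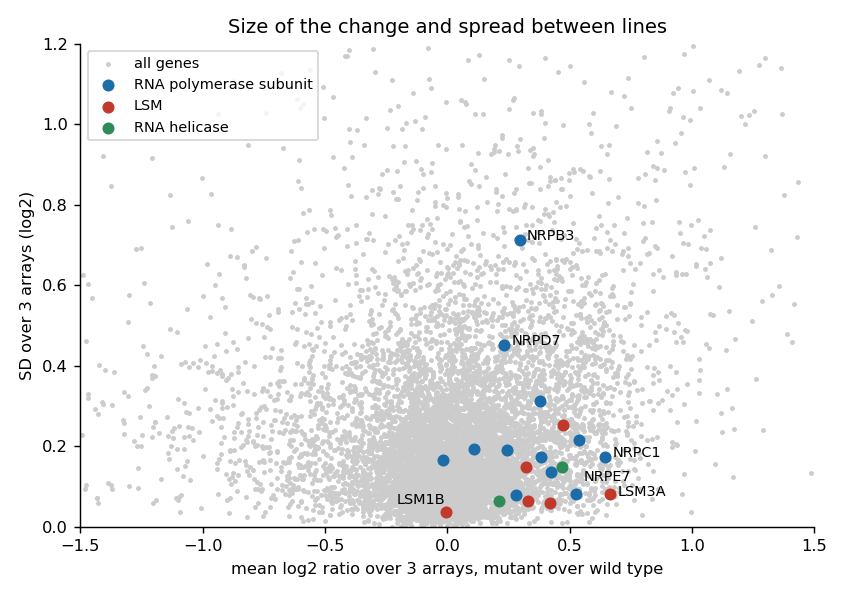
Mean log2 ratio (horizontal axis) and SD over the 3 lines (vertical axis), both in log2 units, for all genes within the plotted range (grey; 193 genes lie outside it) and for the members by family. LSM3A combines the highest mean of the members, 0.67, with an SD of 0.08, and NRPB3 and NRPD7 have the widest spread.

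Other genes of RNA synthesis and processing were taken from 7 lists set by symbol, of which 5 had a measured gene. Limma called 0 of their 16 measured genes, where 3.39% of all genes were called. At an unadjusted p under 0.05 there were 5 of the 16, near the 25.8% of all genes. On all 3 arrays 8 were above 0 and 2 below 0, against 26.2% and 23.9% of all genes. The 3 measured RNA decay genes all belong to the exosome, the complex that degrades RNA from the 3′ end, and all were above 0 on every array. RRP41L (AT4G27490) measured 1.08, 0.66 and 0.51 (mean 0.75 ± 0.29, limma adjusted p = 0.071). RRP41 (AT3G61620) measured 0.92, 0.23 and 0.28, and RRP45a (AT3G12990) measured 0.62, 0.14 and 0.29, with line 1 highest in each. These genes were named after their values had been seen, as were all others of these lists.

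Mediator, the complex that links transcription factors to Pol II, had 7 measured genes with a median of 0.09, of which 3 were above 0 on every array and 1, MED6, below 0. MED10A, listed at 0 in line 1, measured 1.30 and -2.65 in lines 2 and 3, so these opposed each other. Of 3 splicing genes, U2AF35B, for the small subunit of the factor that binds the 3′ splice site, measured 0.67, 0.31 and 0.25, while PRP39 and SCL21 had means of 0.04 and -0.01. The translation factor gene EIF4A-2, itself a DEAD-box helicase, had a mean of 0.18 ± 0.05, and the nucleolar helicase gene PRH75 one of 0.32 ± 0.56. AGO7, of the pathway of trans-acting small interfering RNA, was the 1 small RNA gene measured and was lower, at -0.96, -0.70 and -0.57 (mean -0.74 ± 0.20, limma adjusted p = 0.053). No gene of the lists for Pol II initiation and elongation or for ribosome biogenesis was among those measured.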

How the data were processed

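The authors' deposited values were 1 log ratio per spot and array for 22236 spots, read as log10 of Cy5 over Cy3 because their lower bound is exactly -2, a 100-fold ratio. The base, direction, scanner, background correction and dye normalization are not given in the sources used here, and spot intensities were not used here. The sign of the array with the mutant in Cy3 was turned, values were converted to log2, and spots of 1 gene were averaged. Of the spots, 9335 had 1 listed gene in the platform annotation, 9317 of them matched to the TAIR10.1 gene table. Each gene was tested against 0 with limma 3.58.1 in R 4.3.3 (lmFit, eBayes, two-sided, Benjamini-Hochberg over 9253 genes). The fit was tried on simulated data whose changes were larger than the mean of any member, so recovery of smaller changes was not tested. Errors are SDs over 3 lines, and having only 3 arrays sets the precision. The labels call the lines independent but do not describe their cultivation, so p-values measure the spread between these samples. Members and lists were chosen with earlier results of these data known. Named were all polymerase and LSM genes, the called helicases and the 8 highest and 8 lowest helicases (here both), and up to 6 called genes per list; as no list gene was called, those given were chosen after their values were seen. Alternatives were centring, scaling, zeros left out, a robust prior, a dye term, each line left out, single spots and platform symbols. No sequences are shown.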

Additional observations from a re-analysis of the deposited data

How the results depend on the processing

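Family medians moved by less than their spread over the lines in every alternative: 0.33 to 0.39 for polymerase genes, 0.34 to 0.42 for LSM genes and 0.30 to 0.39 for helicases, including 2 settings chosen after seeing the data (RH57 added, 0.35; NRPB3 and NRPD7 left out, 0.38). Genes called higher and lower (73 and 241) were 0 and 0 with the dye term, where 1592 had an unadjusted p under 0.05 in limma. Higher genes numbered 175 with scaled arrays and 140 with zeros left out. Leaving out single lines gave between 0 and 574 higher genes and between 0 and 583 lower ones: no gene passed limma without line 2 (1373 at an unadjusted p under 0.05) or line 3 (1430). LSM members called were 0 with the dye term and 0 to 1 without a line; polymerase members called were 1 (NRPE7) with scaled arrays and 0 to 1 without a line; no helicase was called in any setting. Signs turned with the dye term for LSM1B (0.0032) and NRPB8B (0.0196). Leaving out single lines, the mean of LSM1B ran from -0.0265 to 0.0091, that of NRPB8B from -0.0894 to 0.074 and that of NRPB3 from -0.1012 to 0.5898. Of the 200 member values under the 10 planned settings, 190 kept their sign and call. The dye term leaves 1 residual degree of freedom and each left-out line leaves 2 arrays. Other causes were not tested. Signal over background was not judged. Each ratio already pairs mutant and wild-type RNA on 1 array, so no further block was fitted.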
